A study of Brassica napus with 9 samples.

Results

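Guard cells of Brassica napus (oilseed rape) exposed to abscisic acid (ABA) for 15 min were compared with mock-treated guard cells in 6 of the 9 samples of the series, 3 in each group. The members are the 15-min and the mock samples of replicate numbers 1, 2 and 3, chosen by their labels, and the changes are described across all genes. All plants were of the double-haploid line DH12075. The ABA 15 min samples were guard cell protoplasts, that is, guard cells freed of their walls by enzymes, kept with 10 µM ABA under light at room temperature, and the mock samples received ethanol in equal proportion. Each sample pooled 3 to 5 protoplast preparations, and each of the 3 biological samples comprised the treatments, so a replicate number joins an ABA and a mock library. The design text sets the control at no exposure, and a mock kept for the same time is not given in the sources used here, so ABA and time in the bath cannot be told apart. The cells had been blended, digested and isolated before treatment, and the groups share that handling.

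Guard cells are the paired cells of the leaf epidermis whose swelling opens and whose shrinking closes the stomatal pore, and ABA is the drought hormone that makes them close it. ABA is bound by receptors of the PYR/PYL family, which then block clade A protein phosphatases (PP2Cs). SnRK2 kinases such as OST1, which the phosphatases otherwise hold inactive, then act on ion channels at the membrane and on bZIP transcription factors of the ABF group in the nucleus. B. napus is an allotetraploid that carries an A and a C subgenome, so most genes known from Arabidopsis are present in several copies, and the letter and number in a gene ID name its subgenome and chromosome.

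The 6 libraries held between 88051359 and 123968001 counts, with a median of 119344671, and mock replicate 1 was the smallest. Of 101040 annotated genes, 24809 had 0 counts in all 6 libraries and 51803 had enough counts to be tested. The median count of a tested gene in a library was 372. The largest differences between libraries followed the replicate number, which explained 99.8% of the first principal component (56% of the variance), while the treatment explained 92.4% of the third (6.43%). Guard cell markers were present in all 6 libraries. The summed level of 7 genes of MPK12, ALMT12 and OST1 was 334, 261 and 1146 CPM (counts scaled to library size) in ABA replicates 1, 2 and 3, and 289, 244 and 898 CPM in mock replicates 1, 2 and 3. CAB1 (BnaC03g59520D), a light-harvesting protein gene, was used as the mesophyll marker. It stood at 40.8, 50.3 and 23.5 CPM with ABA and at 45.2, 46.2 and 21.2 CPM in mock. The study reports highly pure guard cell preparations and lists this gene as differentially expressed in them. CAB1 is therefore no measure of mesophyll content alone. None of these 8 markers was at 0 in any library, and replicate 3 was highest in guard cell markers and lowest in CAB1 in both groups. Of the 8 markers, 3 rose with ABA, namely both ALMT12 genes and 1 MPK12 gene, by 0.29 to 0.34 on the log2 scale. In such bulk samples fewer cells of a type and less RNA per cell cannot be told apart.

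A gene is called when its adjusted p-value (Benjamini-Hochberg over all genes tested, edgeR's quasi-likelihood test with the replicate number as a block) is under 0.05, and the standard error (SE) of a log2 fold change comes from the same test. Rises and falls of called genes are log2 fold changes wherever no other unit is given. At 15 min 898 genes were called, which is 1.73% of the genes tested. Of these, 714 genes (1.38% of those tested) were higher with ABA and 184 genes (0.355%) were lower. The changes were small for most of them. Genes that rose had a median log2 fold change of 0.53, with a range of 0.23 to 4.73, and 330 of them changed by less than 0.5. Genes that fell had a median of -0.50, with a range of -2.96 to -0.25. Over all genes tested the median log2 fold change was -0.0037 and the median absolute value was 0.09. A rise over 1 on the log2 scale was found for 157 genes, a rise over 2 for 36 and a rise over 3 for 13, against 20 genes that fell by more than 1. The direction was the same in each of the 3 replicate pairs for 896 of the 898 genes, against 16476 of all 51803 genes tested. The paired test favours such genes, so this describes the calls.

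The 2 groups often overlapped in level even where the change was called, and replicates of a group differed from each other. Every ABA library was above every mock library for 768 genes (1.48% of those tested), and every ABA library was below every mock library for 470 (0.907%). Among the called genes this held for 253 of the 714 that rose and for 25 of the 184 that fell. The number of calls also depended on which samples entered the fit. When the 60-min libraries were added to the model, 209 genes were called higher (0.395% of the 52881 genes then tested) and 19 lower (0.0359%), and all 228 were among the 898. Without the replicate block no gene was called by edgeR, against 328 at an unadjusted p under 0.05, and DESeq2's Wald test with the block called 780 in the 6 samples. Leaving out replicate 1 gave 445 calls, leaving out replicate 2 gave 1799 and leaving out replicate 3 gave 738. All 898 genes kept their direction in every alternative fit that gave them a value. These fits reuse the libraries on which the genes were called, so this is no independent check. The samples are pools of preparations. With the replicate block, p-values measure how the difference between ABA and mock varied over the 3 pairs of pools, not the spread between pools.

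**Figure D1:**
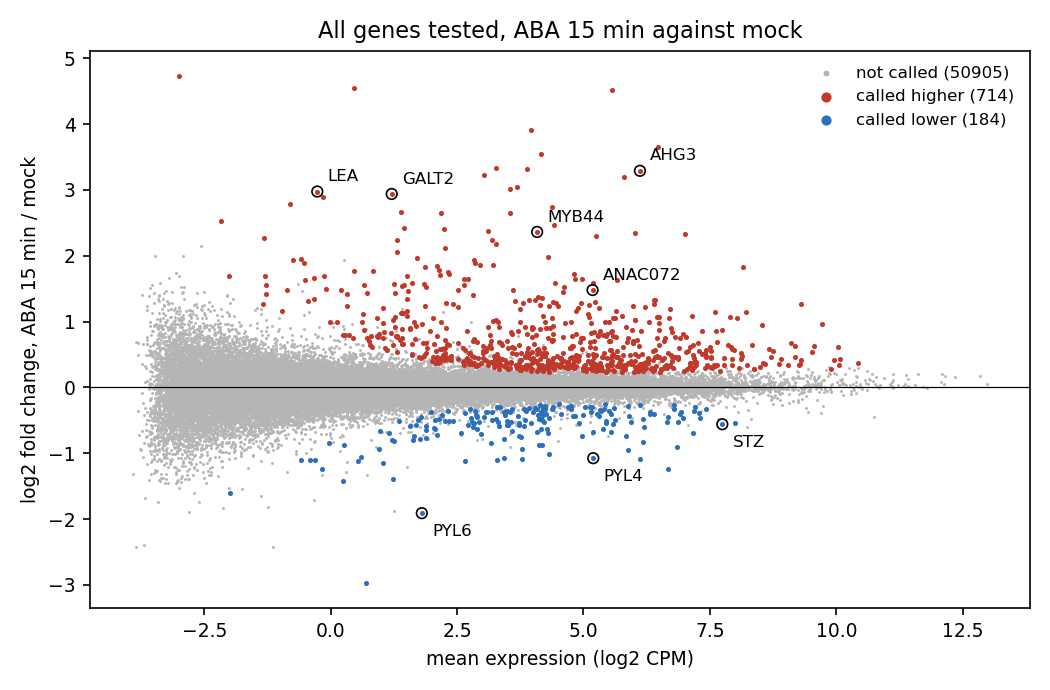
Log2 fold change of ABA 15 min over mock against mean expression (log2 CPM) for the 51803 genes tested, 1 point a gene, with called genes in red (714 higher) and blue (184 lower) and 8 genes named in the text circled. Calls lie mostly at middle and high expression, and rises reach 4.73 while falls reach -2.96.

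The PP2C phosphatases, the co-receptors that hold the pathway off, were the family with the most rises among the lists used here. All 19 listed genes were tested, 13 rose and none fell, with a median log2 fold change of 0.64, against 1.38% of all genes tested that rose. The study listed these genes as regulated in this same experiment, at a time of treatment that the list does not state, so their direction is not independent evidence. It kept only genes that it found highly regulated, so copies that did not respond can be missing. Here and below, copies of a gene are those listed, and copies outside the lists were not examined. AHG3 (also known as PP2CA), a phosphatase that restrains SnRK2 kinases and ion channels in Arabidopsis guard cells, had the largest changes of the family. AHG3 BnaA05g27660D stood at 98.8, 82.5 and 197 CPM in ABA replicates 1, 2 and 3, against 10.7, 18.3 and 8.47 CPM in mock replicates 1, 2 and 3. The groups did not overlap, and replicate 3 had both the highest ABA and the lowest mock value. This is a 9.78-fold rise, or 3.29 on the log2 scale (SE 0.32, adjusted p = 0.000177). AHG3 BnaA01g37370D had 10.1, 10.4 and 32.1 CPM with ABA and 1.16, 2.57 and 1.07 CPM in mock, a rise of 3.33 (SE 0.37, adjusted p = 0.00049). AHG3 BnaC05g41830D had 70.5, 57.7 and 175 CPM with ABA and 7.52, 14.5 and 8.38 CPM in mock, a rise of 3.20 (SE 0.32, adjusted p = 0.000237). The copies on A01, A05 and C05 differed by less than the SE of any of them, and each stayed called when any replicate was left out.

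The phosphatase genes next in size were those of the HAI group, which respond strongly to ABA in Arabidopsis. AIP1 had 3 listed copies, which rose by 1.17 (BnaA09g49440D), 1.48 (BnaA10g04840D) and 1.63 (BnaC05g05180D) on the log2 scale. Their adjusted p-values were 0.000198, 0.000116 and 0.0025. AIP1 BnaA10g04840D had 6.50, 14.1 and 4.24 CPM with ABA, against 1.59, 6.57 and 1.54 CPM in mock. Here the groups overlapped, since mock replicate 2 was above ABA replicates 1 and 3, yet each ABA library was above the mock library of its own number. HAI1 BnaA10g12140D had 10.8, 10.5 and 14.3 CPM with ABA and 3.12, 5.54 and 1.77 CPM in mock, without overlap, and rose by 1.86 (SE 0.26, adjusted p = 0.0028). HAI1 BnaC09g34350D rose by 1.28 (SE 0.20, adjusted p = 0.0046). HAI3 (BnaA05g12650D) had 24 counts at most in a library and was not called.

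ABI1, a phosphatase named for ABA insensitivity, rose in all 4 listed copies but by less. ABI1 BnaA01g15250D had 156, 186 and 182 CPM with ABA, against 107, 143 and 91.4 CPM in mock, so that every ABA library was above every mock library. It rose by 0.64 (SE 0.09, adjusted p = 0.0034). The other copies rose by 0.48 (BnaC01g18020D), 0.38 (BnaC07g40100D) and 0.30 (BnaC08g12100D), with adjusted p-values from 0.0191 to 0.03. HAB2 BnaA08g23040D rose by 0.52 (adjusted p = 0.014), while its other copy BnaC08g17440D had a log2 fold change of 0.48 and an adjusted p of 0.0852. The ABI2 genes had log2 fold changes of 0.42 and 0.27 and the HAB1 genes of 0.26 and 0.27, and neither pair was called. Without replicate 1 the calls of 3 ABI1 genes (BnaC01g18020D, BnaC07g40100D and BnaC08g12100D) and of HAB2 BnaA08g23040D were lost, with adjusted p-values of 0.0575 to 0.229, and 9 of the 19 genes were called. Without replicate 3 ABI1 BnaC08g12100D was lost (adjusted p = 0.111), and the log2 fold changes of ABI1 BnaC01g18020D and HAB2 BnaA08g23040D were 0.31 and 0.34. In the fit of all 9 samples 5 phosphatase genes were called, the 3 AHG3 copies, AIP1 BnaA10g04840D and HAI1 BnaA10g12140D.

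The listed PYR/PYL receptors, which bind the hormone, mostly moved the other way. Of 18 listed genes, all tested, 10 fell and none rose, against 0.355% of all genes that fell, and the median log2 fold change was -0.61. These genes too were listed by the study as regulated in these samples, so their direction is not independent evidence. Receptor genes outside the list were not examined. The falls lay in PYL4, PYL5 and PYL6, which are close relatives within the family, and in 1 copy of PYR1. All 4 listed copies of PYL4 fell, by 0.83 to 1.07 on the log2 scale. PYL4 BnaC03g21240D had 20.5, 24.7 and 24.1 CPM in ABA replicates 1, 2 and 3, against 42.5, 38.5 and 69.2 CPM in mock replicates 1, 2 and 3. The ABA libraries lay close together and below all mock libraries, of which replicate 3 was the highest. It fell by 1.07 on the log2 scale (SE 0.12, adjusted p = 0.000471). PYL4 BnaA03g17720D had 50.3, 47.5 and 56.1 CPM with ABA and 78.4, 72.1 and 132 CPM in mock, a log2 fold change of -0.83 (adjusted p = 0.00095). PYL4 BnaC04g07010D had 41.6, 32.3 and 41.5 CPM with ABA and 71.5, 47.4 and 117 CPM in mock, a log2 fold change of -0.95 (adjusted p = 0.0024). BnaAnng13200D, on an unplaced part of the A subgenome, fell by 0.93 (adjusted p = 0.0033), and in this copy the groups overlapped. All 4 PYL4 genes stayed called when any replicate was left out.

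PYL6 varied most among the receptor genes. PYL6 BnaA05g05420D had 1.18, 0.158 and 2.33 CPM with ABA, against 2.33, 0.537 and 13.8 CPM in mock. The level differed so much between replicate numbers that the groups overlapped, but each ABA library was below its own mock, by 0.96, 1.66 and 2.56 on the log2 scale in replicates 1, 2 and 3. At -1.91 (SE 0.25, adjusted p = 0.0016) it had the lowest log2 fold change of the receptor genes. PYL6 BnaC03g22610D fell by 1.10 and BnaC04g47050D by 0.43, with adjusted p-values of 0.0418 and 0.0435. The PYL6 copy BnaC04g04830D had a log2 fold change of -1.21 and was not called (adjusted p = 0.14). It was at 1.32, 0.582 and 2.12 CPM with ABA and at 1.90, 0.454 and 10.2 CPM in mock, so that replicate 2 went the other way. The PYL5 copies BnaC03g02130D and BnaC09g49910D fell by 0.62 and 0.59, and PYR1 BnaC08g11070D by 0.35.

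Not called were the listed genes of PYL1, PYL2 and PYL9, the other copies of PYL5 and PYR1 and 2 copies of PYL6. Among the 18 listed receptor genes PYL9 (BnaA10g00540D) had the only positive log2 fold change, 0.06. The receptor calls leaned on replicate 3. Without it 5 of the 18 genes were called, the 4 PYL4 copies and PYL6 BnaA05g05420D, while 7 were called without replicate 1 and 15 without replicate 2. The calls lost without replicate 1 were PYL5 BnaC09g49910D and PYL6 BnaC03g22610D and BnaC04g47050D, with adjusted p-values of 0.0598 to 0.206. Without replicate 3 the log2 fold change was -1.20 for PYL6 BnaA05g05420D, -0.67 for PYL6 BnaC03g22610D, -0.24 for PYL6 BnaC04g47050D and -0.31 for PYL5 BnaC09g49910D. The fit of all 9 samples called 2 genes, PYL4 BnaA03g17720D and BnaC03g21240D.

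**Figure D2:**
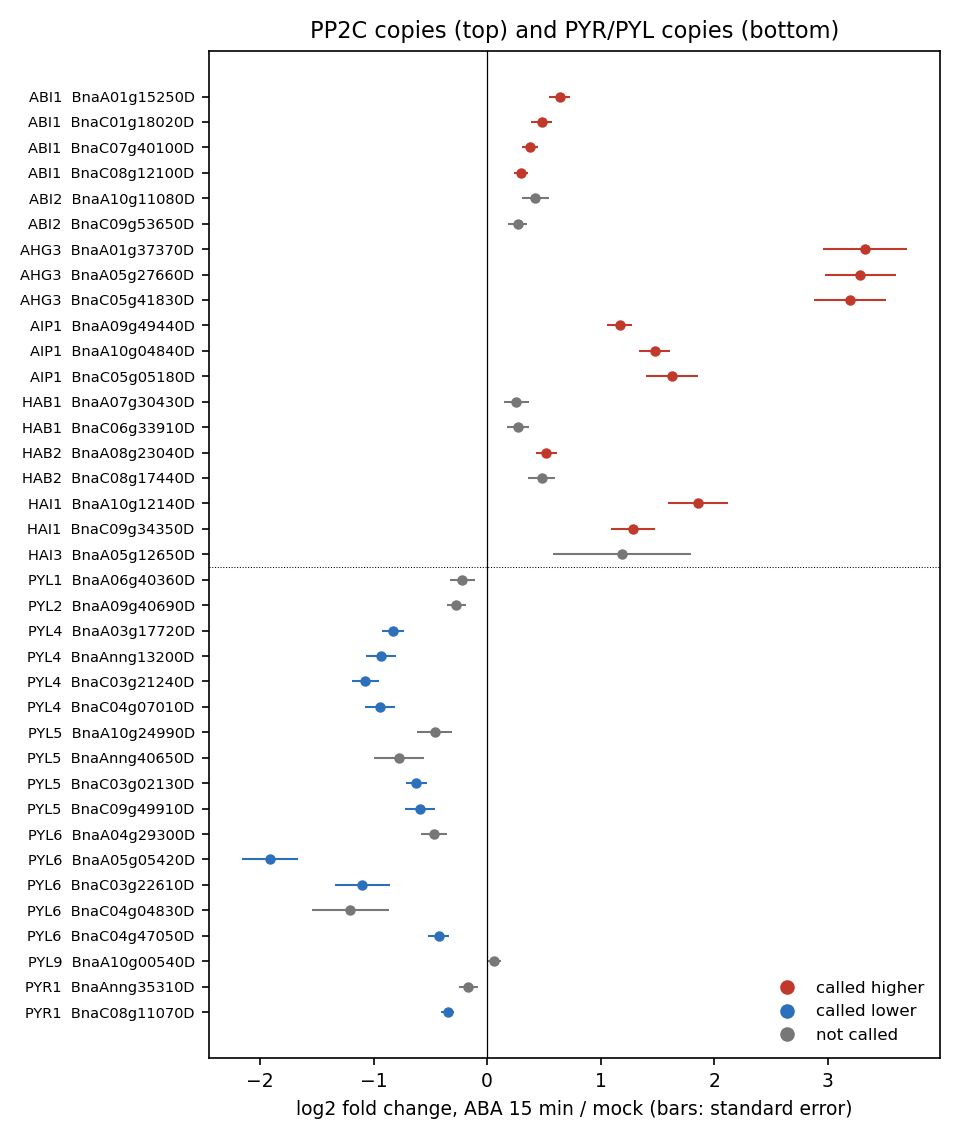
Log2 fold change of ABA 15 min over mock with its standard error for each of 19 PP2C genes (top) and 18 PYR/PYL genes (bottom), with called genes in red or blue and the others in grey. The 13 called phosphatase genes lie right of 0 and the 10 called receptor genes left of it, and the 3 AHG3 copies stand apart from the other phosphatases at 3.20 to 3.33.

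Transcription factors of the ABA pathway were the next group. Of 30 listed genes 28 were tested, 11 rose and none fell, with a median log2 fold change of 0.35, against 1.38% of all genes tested that rose. Like the phosphatases they were mostly taken from lists the study chose on these samples. The rises belonged to MYB44, ANAC072, ABF3, ABF4, ATHB6 and MYC2. MYB44, a MYB factor that acts in stomatal closure in Arabidopsis, rose in all 3 listed copies. MYB44 BnaA07g11930D had 24.0, 27.2 and 32.4 CPM in ABA replicates 1, 2 and 3, against 4.42, 9.96 and 3.27 CPM in mock replicates 1, 2 and 3. The ABA libraries were close to each other and all above the mock libraries, of which replicate 2 was the highest. It rose by 2.36 (SE 0.24, adjusted p = 0.00026). MYB44 BnaC07g16030D rose by 1.99 (SE 0.22, adjusted p = 0.00049) and BnaC02g16640D by 1.33 (SE 0.10, adjusted p = 3.6e-05), both without overlap between the groups.

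ANAC072 (RD26), a NAC factor induced by dehydration and ABA, rose in 3 of its 4 copies. ANAC072 BnaA03g48570D had 51.0, 76.1 and 29.8 CPM with ABA and 19.8, 32.7 and 8.06 CPM in mock. The groups overlapped, with ABA replicate 3 below mock replicate 2, but the ratio within a pair was alike, at 1.37, 1.22 and 1.89 on the log2 scale. It rose by 1.48 (SE 0.10, adjusted p = 1.5e-05), and the rises of BnaC07g40860D and BnaA01g16400D were 1.65 and 1.56. The copy BnaC01g19550D had 1.54, 1.15 and 0.763 CPM with ABA and 1.56, 1.35 and 0.701 CPM in mock, with a log2 fold change of -0.05 (adjusted p = 0.955). The MYB44 copies and the 3 called ANAC072 copies stayed called without any 1 replicate and with all 9 samples in the fit.

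The ABF factors bind the ABA-responsive element in promoters and are direct targets of SnRK2 kinases. Of 3 listed ABF3 genes 2 rose. ABF3 BnaC07g44670D had 48.4, 41.0 and 125 CPM with ABA, against 25.0, 29.5 and 30.2 CPM in mock. The mock libraries were alike and all below the ABA libraries, of which replicate 3 was far the highest. It rose by 1.16 (SE 0.21, adjusted p = 0.0128). ABF3 BnaAnng26550D had 38.0, 28.5 and 75.6 CPM with ABA and 21.5, 22.0 and 17.3 CPM in mock, also without overlap, and rose by 1.11 (adjusted p = 0.0339). Without replicate 3 the log2 fold change was 0.60 for BnaAnng26550D and 0.71 for BnaC07g44670D. The copy BnaC01g04330D had a log2 fold change of 0.91 that was not called (adjusted p = 0.0551), although its groups did not overlap either. Of 6 ABF4 genes 1 rose, BnaA01g26200D, by 0.41 (adjusted p = 0.0081), and the other 5 lay between -0.13 and 0.30. The 2 ABF2 genes and the 2 genes assigned to ABF1 or ABF2 lay between 0.01 and 0.13 and were not called.

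ATHB6, a homeodomain-leucine zipper factor that binds the phosphatase ABI1 in Arabidopsis, rose by 0.72 (BnaA09g42630D, SE 0.07, adjusted p = 0.000216). It had 58.0, 39.3 and 157 CPM with ABA and 37.1, 26.8 and 81.6 CPM in mock, which overlapped. MYC2, a bHLH factor shared with jasmonate signalling, rose in the copy BnaC08g07580D by 0.42 (adjusted p = 0.0227), while BnaA05g18020D had 0.09. ABI5 (0.11), WRKY2 (0.25) and HY5 (0.09) were not called, nor were the 2 tested genes of AFP1, a binding partner of ABI5, at 0.85 and 1.25 on few counts. Without replicate 1 the calls of ABF3 (both genes), ABF4 and MYC2 were lost, with adjusted p-values of 0.0578 to 0.132, and 7 transcription factor genes were called. Without replicate 3 MYC2 was lost (adjusted p = 0.131) and ABF3 BnaC01g04330D was gained. The fit of all 9 samples called 7, the MYB44 and ANAC072 genes named above and ATHB6.

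**Figure D3:**
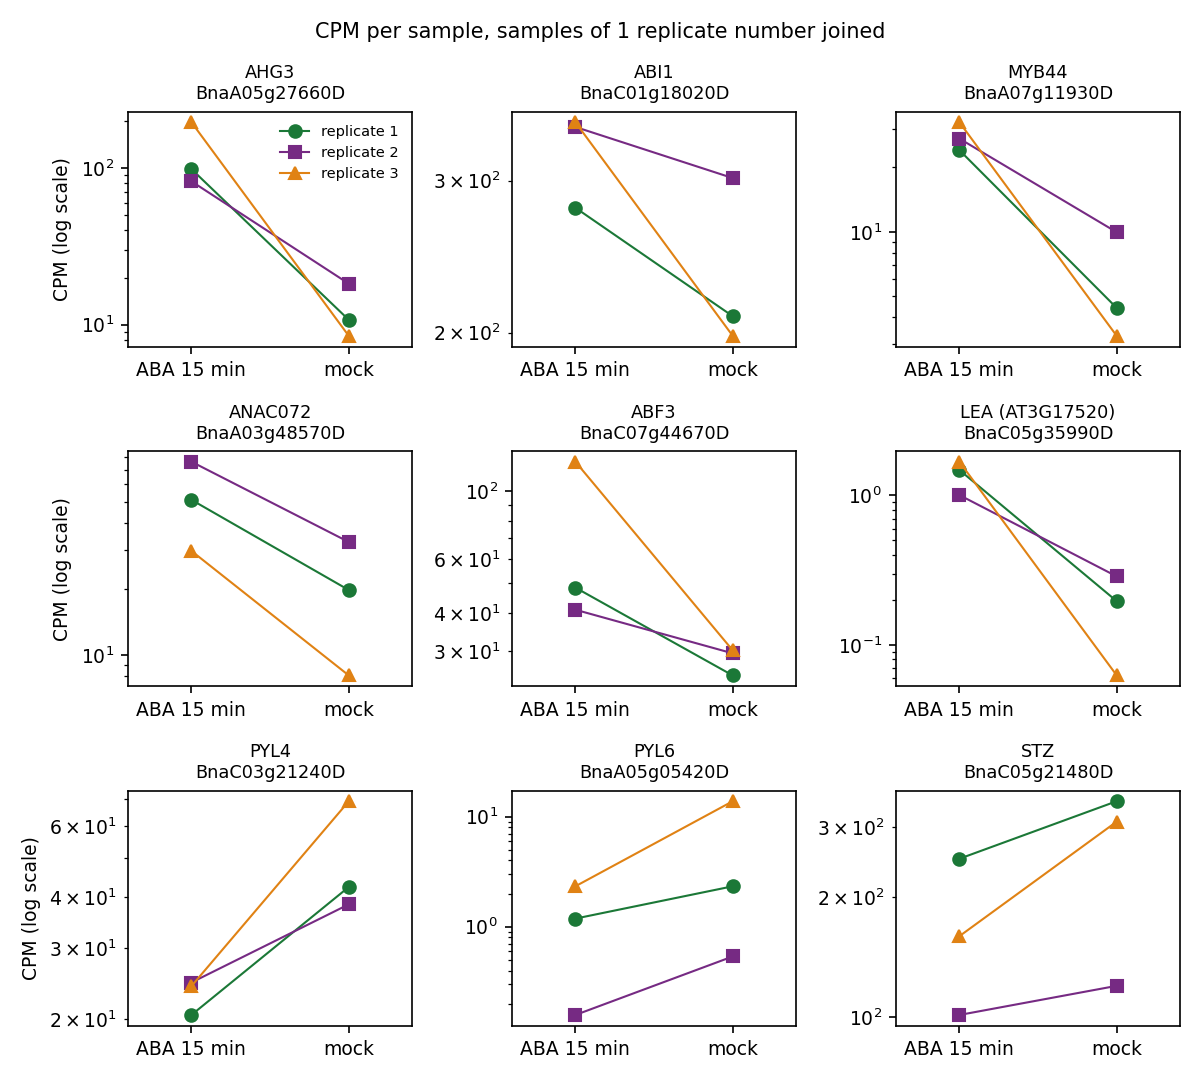
CPM (log axis) in each of the 6 libraries for 9 genes, ABA 15 min left and mock right, with the libraries of 1 replicate number joined by a line. All lines of AHG3, ABI1, MYB44, ANAC072, ABF3 and the LEA gene run higher on the ABA side and all lines of PYL4, PYL6 and STZ lower, and in each of the 9 genes the line of replicate 3 is the steepest.

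Late embryogenesis abundant (LEA) proteins are hydrophilic proteins that accumulate in drying seeds and stressed leaves. The 12 genes grouped here as LEA are copies of AT3G17520, AT3G02480 and AT3G15670, families that the study listed because their copies differed at 60 min against the same mock libraries. The study gives them no common name, and the LEA name is background. Of these 12 genes, 6 had enough counts to be tested and all of these 6 rose, against 1.38% of all genes tested. The other 6 had 10 counts at most in any library. Since a gene that is nearly silent in mock passes the count filter through the ABA libraries alone, and since the families were chosen on these samples, the 6 of 6 is a description. The copies of AT3G17520 changed most. BnaC05g35990D had 189, 102 and 225 counts in ABA replicates 1, 2 and 3, against 18, 31 and 8 counts in mock replicates 1, 2 and 3, and rose by 2.98 on the log2 scale (SE 0.37, adjusted p = 0.0013). BnaAnng35040D had 193, 93 and 57 counts with ABA and 24, 17 and 3 counts in mock, a rise of 2.78 (SE 0.30, adjusted p = 0.000368). In both the lowest ABA library held more than the highest mock library. The copies of AT3G02480 rose by 1.70 (BnaA03g27910D) and 1.96 (BnaC03g32950D) and those of AT3G15670 by 1.24 (BnaA05g23860D) and 1.44 (BnaC05g37670D). Without replicate 1 both AT3G02480 genes lost the call (adjusted p = 0.0624 and 0.369). With all 9 samples in the fit 3 were called, both AT3G17520 genes and BnaA05g23860D.

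Single copies of 3 other families rose while their relatives did not pass the test. These families were listed by the study because their copies differed at 60 min. GALT2, a galactosyltransferase that adds sugars to arabinogalactan proteins in Arabidopsis, rose in BnaC07g36550D. It had 2.53, 5.93 and 3.55 CPM with ABA and 0.239, 1.17 and 0.304 CPM in mock, without overlap, and rose by 2.94 on the log2 scale (SE 0.20, adjusted p = 1.6e-05), or 7.66-fold. The GALT2 copies BnaA01g10960D and BnaC01g12450D had log2 fold changes of 0.07 and 0.05, with SEs of 0.07 and 0.09. TSPO, a membrane protein that binds tetrapyrroles and is induced by ABA in Arabidopsis, rose in BnaC04g51120D by 1.42 (adjusted p = 0.000385), while its other 3 copies lay between -0.08 and 0.72. DJ1C BnaA03g50810D had 33, 18 and 73 counts with ABA and 5, 3 and 11 counts in mock, a rise of 2.53 (SE 0.41, adjusted p = 0.007). On so few counts its call was lost without replicate 1 (adjusted p = 0.0536) or replicate 3 (0.0957), while the other 2 families kept theirs. The DJ1C copies BnaAnng26560D and BnaC01g04310D lay at 0.04 and -0.18, and BnaC01g04320D had 1 count at most. Reads that fit several copies were not counted, so values of near-identical copies are uncertain.

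Genes that set the level of ABA itself changed by less. CYP707A1, the enzyme that starts ABA breakdown by hydroxylation, rose in all 3 listed copies. The study listed BnaC01g11650D and BnaAnng27240D for their change on this same contrast, so their values are a description. CYP707A1 BnaC01g11650D had 13.7, 11.4 and 24.8 CPM with ABA and 9.15, 8.86 and 18.1 CPM in mock. The groups overlapped, since mock replicate 3 was above ABA replicates 1 and 2, but each pair rose by a similar amount (0.58, 0.36 and 0.46 on the log2 scale), with 0.47 over all pairs (SE 0.06, adjusted p = 0.0017). BnaA03g43960D rose by 0.45 (adjusted p = 0.0211) and BnaAnng27240D by 0.39 (adjusted p = 0.0162). ABCG25, an exporter of ABA, rose by 0.73 in BnaC06g32970D (adjusted p = 0.0268), and its other copy had too few counts. The ABCG31 transporter genes (0.30 and 0.24) and the 3 genes of the biosynthetic enzyme ABA1 (0.07 to 0.48) were not called. In all, 4 of 10 listed genes rose and none fell, with 9 tested, against 1.38% of all genes tested that rose. Of the 4, 2 were listed for that rise. The others were listed as regulated in this same experiment, at a time the list does not state, so the count is a description. Without replicate 1 only CYP707A1 BnaC01g11650D was called, and the others had adjusted p-values of 0.0765 to 0.163. Without replicate 3 BnaA03g43960D was lost (adjusted p = 0.0544). In the edgeR fit of all 9 samples only CYP707A1 BnaC01g11650D was called. DESeq2's Wald test on all 9 samples also called BnaAnng27240D (adjusted p = 0.0387).

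Of the other genes in the study's ABA-related lists, 3 of 9 kinase genes, 2 of 5 genes of ion transport and oxidase function and 1 of 5 plastid genes rose and none fell, against 1.38% of all genes tested that rose. All were tested, and the study chose these lists on these samples. OST1, the SnRK2 kinase of guard cells, had log2 fold changes of 0.23 and 0.12 in its 2 listed copies, and neither was called. RPK1, a receptor-like kinase of the plasma membrane, rose in both listed copies, by 0.49 (BnaA02g14680D, adjusted p = 0.0036) and 0.36 (BnaCnng26240D, adjusted p = 0.0229). RPK1 BnaA02g14680D had 41.3, 34.5 and 42.8 CPM with ABA and 31.0, 27.6 and 25.9 CPM in mock, without overlap. MPK12, a MAP kinase found mainly in guard cells, rose by 0.31 in 1 of 3 copies (BnaC04g50710D, adjusted p = 0.0116). ALMT12, the anion channel that lets malate out of closing guard cells, rose in both listed copies. The rises were 0.29 (BnaA03g43490D) and 0.34 (BnaC07g34970D), with adjusted p-values of 0.0208 and 0.0303. The oxidase gene RBOHD had a log2 fold change of -0.24 and was not called, nor were CAX3, ANN1, CIPK14 and CIPK23. FIB, a plastid lipid-associated protein, rose by 0.33 in 1 of 3 copies (BnaA09g20620D, adjusted p = 0.007), and the ABAR genes, a subunit of magnesium chelatase, had 0.30 and 0.35. Without replicate 1 all of these calls but that of RPK1 BnaA02g14680D were lost, with adjusted p-values of 0.0662 to 0.263. Without replicate 3 those of MPK12 (0.0583) and ALMT12 BnaA03g43490D (0.0507) were lost. In the edgeR fit of all 9 samples none of the kinase, ion transport, oxidase and plastid genes was called. DESeq2's Wald test on all 9 samples called 1 of them, RPK1 BnaA02g14680D (adjusted p = 0.0015).

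Transcription factors that the study tied to promoter motifs formed a separate list. The ABF1, ABF2 and ABF4 genes that the study also tied to motifs are counted above with the ABA-related factors, where 1 ABF4 gene rose. Of the other 33 genes 26 were tested, 4 rose, none fell and 22 were not called. The median log2 fold change of those tested was 0.06, and 1.38% of all genes tested rose. The rises were in HSFC1, a heat shock factor, and in the group of G-box binding bZIP factors. HSFC1 BnaA07g05580D had 31.1, 36.2 and 52.1 CPM with ABA and 19.9, 21.8 and 28.4 CPM in mock, without overlap, and rose by 0.75 (SE 0.06, adjusted p = 3.7e-05). HSFC1 BnaC07g07130D rose by 0.89 (SE 0.10, adjusted p = 0.000468), and the other 2 copies had 0.54 and 0.14. The G-box factor genes BnaA09g00170D and BnaC04g01070D rose by 0.70 and 0.53 (adjusted p = 0.0092 and 0.0268), and the other 6 tested copies lay between 0.01 and 0.57. The tested genes of ARF1, CBF2, ERF1, MYB2, VOZ1, RAV2 and TGA1 were not called. Without replicate 1 both G-box factor calls were lost (adjusted p = 0.0846 and 0.12), and the edgeR fit of all 9 samples called the 2 HSFC1 genes. DESeq2's Wald test on all 9 samples also called BnaA09g00170D (adjusted p = 0.003). Without replicate 3 the log2 fold change of BnaC04g01070D was 0.31.

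The study also listed targets of MYC2 and HY5. It kept pairs whose factor and target were both differentially expressed in this experiment, so the counts here are a description. The targets include the 3 called copies of ANAC072, which are counted above with the transcription factors. Of the other 24 genes, all tested, 2 rose and none fell, with a median log2 fold change of 0.10, against 1.38% of all genes tested that rose. Both were copies of AT1G19000, BnaA08g22290D by 1.01 (adjusted p = 0.0074) and BnaC08g18480D by 0.86 (adjusted p = 0.0236), and in both the groups did not overlap. BnaC08g18480D had 14.5, 13.5 and 22.4 CPM with ABA and 9.59, 10.4 and 7.37 CPM in mock. The call of BnaC08g18480D was lost without replicate 1 (adjusted p = 0.0822), and neither was called with all 9 samples. Without replicate 3 the log2 fold changes of BnaA08g22290D and BnaC08g18480D were 0.64 and 0.48. Copies of ERD14, a dehydrin, had log2 fold changes of 0.05 to 0.30 and those of RD22, a gene induced by dehydration, of -0.04 and 0.06, and none was called.

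**Figure D4:**
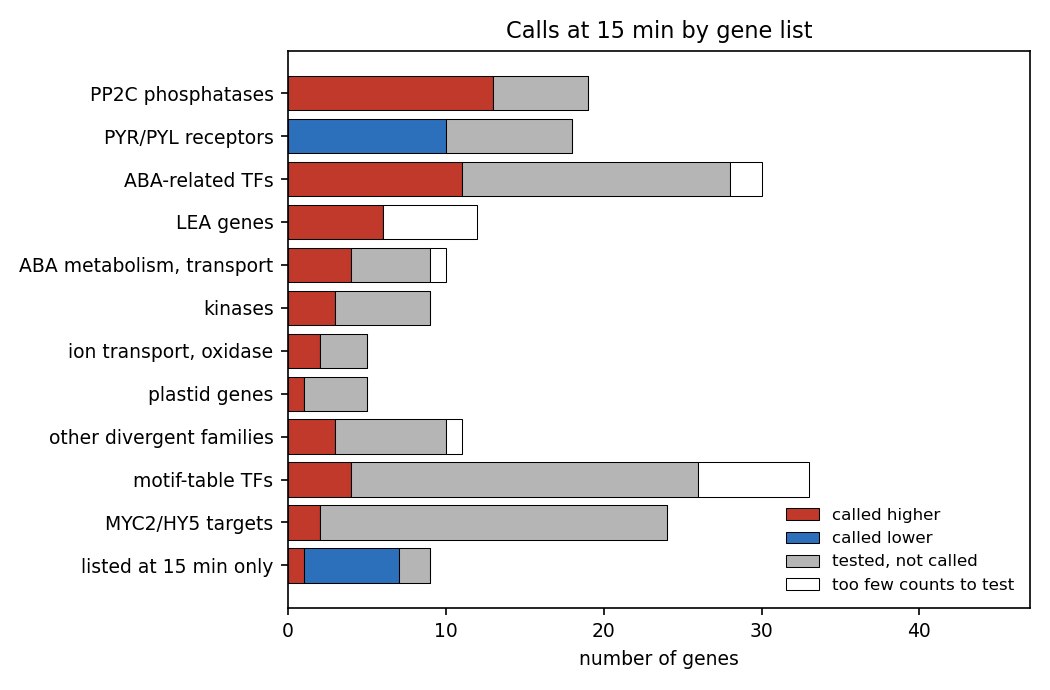
Number of genes called higher, called lower, tested and not called, and too low to test in each of 12 gene lists at 15 min (bars, number of genes on the horizontal axis). Rises are most numerous among phosphatases (13 of 19) and ABA-related factors (11 of 30), falls appear in the receptors (10 of 18) and in the genes listed at 15 min only (6 of 9). Over all genes tested 1.38% rose and 0.355% fell. The lists were largely chosen on these samples, and the genes listed at 15 min only were chosen on this contrast.

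Genes that the study singled out at 15 min were chosen on this same contrast, so their values describe and do not test. STZ (ZAT10), a zinc finger repressor of stress responses, fell in both listed copies. STZ BnaC05g21480D had 250, 101 and 160 CPM with ABA, against 348, 120 and 309 CPM in mock, and a log2 fold change of -0.56. Replicate 2 was low in both groups, so the groups overlapped, and each ABA library was below its own mock. STZ BnaA09g27780D fell by 0.45, the kinase gene MAPKKK14 (BnaA05g12320D) by 0.54 and the reticulon-like gene RTNLB3 (BnaA09g11950D) by 0.78. Also lower were BnaA08g02360D by 0.57 and BnaC06g40000D by 0.44. FAB1C (BnaC06g32150D), a kinase of phosphoinositide lipids, had 23.8, 20.6 and 20.9 CPM with ABA and 19.2, 15.7 and 16.8 CPM in mock, a rise of 0.33 on the log2 scale without overlap. The metallothionein gene MT3 (BnaC03g39060D, -0.90) and BnaC05g31990D (0.88) were not called, with adjusted p-values of 0.0596 and 0.0546. The stress factors MYB30 (BnaC02g37590D) and HSFA7A (BnaC04g28450D) were higher by 0.38 and 0.69. Without replicate 1 the calls of both STZ genes, MAPKKK14, RTNLB3, BnaA08g02360D, FAB1C and HSFA7A were lost (adjusted p of 0.0603 to 0.278), and without replicate 3 those of MAPKKK14 (0.131) and BnaC06g40000D (0.124). The log2 fold changes of MAPKKK14 and STZ BnaC05g21480D were -0.32 and -0.36 without replicate 3. Of the genes in this paragraph, the edgeR fit of all 9 samples called only FAB1C. DESeq2's Wald test on all 9 samples called every one but BnaA08g02360D (adjusted p = 0.0541). Among those it called were MT3 (adjusted p = 0.0326) and BnaC05g31990D (0.0143). The study chose these genes with that kind of fit, so this is no independent check.

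Across the lists 170 of 187 genes were tested, 52 rose and 16 fell, against 1.38% and 0.355% of all genes tested. The lists were largely chosen on these samples, so this is a description. Most of the 714 and 184 called genes are therefore in no list, and the files and tables used here give them no name. Among them BnaCnng44320D had the largest rise by the rule used for such genes. It had 279, 141 and 520 counts in ABA replicates 1, 2 and 3, against 7, 17 and 10 counts in mock replicates 1, 2 and 3, and rose by 4.55 on the log2 scale (SE 0.32, adjusted p = 2e-05). BnaA06g06370D had 53.4, 30.1 and 189 CPM with ABA and 2.18, 4.01 and 3.09 CPM in mock, a rise of 4.51 (SE 0.41, adjusted p = 0.000113), or 22.8-fold. In both genes every ABA library was above every mock library and replicate 3 held the highest value. The largest falls by the same rule were those of BnaA06g37320D, with 83, 63 and 77 counts with ABA and 108, 153 and 319 counts in mock (log2 fold change -1.42, adjusted p = 0.0054), and BnaA02g27860D, with 162, 43 and 279 counts with ABA and 257, 137 and 768 counts in mock (-1.40, adjusted p = 0.00011). These 4 genes stayed called when any replicate was left out and with all 9 samples.

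The size of the change differed between replicate numbers. Within replicates 1, 2 and 3 the median log2 ratio of the genes called higher was 0.54, 0.38 and 0.69, and that of the genes called lower was -0.40, -0.30 and -0.74. The largest ratio was in replicate 3 for 499 of the 714 genes that rose, and the largest fall was in replicate 3 for 155 of the 184 that fell. Over all genes tested the median ratio lay between -0.0042 and 0.00097 in the 3 replicates. The phosphatases had median ratios of 0.42, 0.38 and 0.99 and the receptors of -0.50, -0.22 and -0.94 in replicates 1, 2 and 3. The ABA-related factors had 0.37, 0.29 and 0.53 and the LEA genes 2.35, 1.29 and 2.49. Replicate 3 also had the highest summed guard cell markers, 1146 CPM with ABA and 898 CPM in mock, and the lowest CAB1, and their part in the size of the change was not tested.

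**Figure D5:**
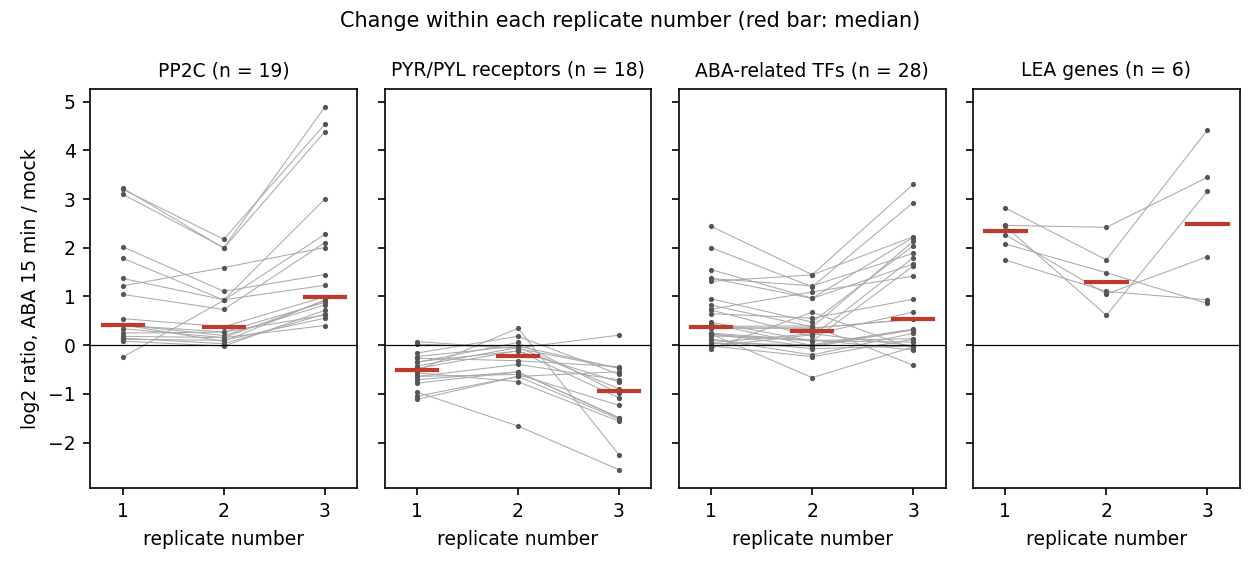
Log2 ratio of ABA 15 min over mock within replicates 1, 2 and 3 (horizontal axis, in no order) for the tested members of 4 lists, with 1 dot a gene, grey lines joining a gene and red bars at the median. Medians are largest in size in replicate 3, at 0.99 for phosphatases and -0.94 for receptors, and smallest in replicate 2, at 0.38 and -0.22.

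How often a gene was called depended on its counts. With the genes tested split by mean expression into 10 groups of near equal size, 0.0386% were called in the lowest, where a gene had a median of 15 counts, and 5.96% in the highest, where it had 7592. The median standard error of the log2 fold change was 0.47 at the low end and 0.05 at the high end, so changes of low genes were not detectable at this depth unless they were large. On the A subgenome 462 of 24751 tested genes were called (1.87%), and on the C subgenome 435 of 26920 (1.62%), a difference that was not tested. By chromosome the share ran between 1.28% (C08) and 2.36% (A01).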

How the data were processed

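The authors used TopHat2 to align single-end reads of 100 bases to the genome of the Darmor line, and HTSeq to count the reads that belong to 1 gene. The deposited values are these raw counts for 101040 genes, and reads that fit several places are left out. The strand setting and the annotation release are not given in the sources used here, which leaves values of overlapping genes and of near-identical copies uncertain.

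From the counts of the 6 samples, edgeR 4.0.16 (R 4.3.3) was run with filterByExpr, TMM scaling, terms for treatment and replicate number, and the quasi-likelihood test. The block follows the study's methods, in which each biological sample comprised the treatments. Deviations from the group means correlated positively between libraries of the same number (0.749 to 0.856) and negatively between different numbers (-0.613 to -0.171). Centring on the group means pulls the latter below 0 when the former are positive, so they add no separate evidence. Libraries of a group were no copies of each other (chi-square per degree of freedom of at least 146). Standard errors were taken as the size of the log2 fold change over the square root of F. CPM are TMM-scaled, and ratios within a replicate add a prior count of 2 before taking log2. DESeq2 1.42.0 was an alternative, as were 10 other settings. The test was tried on simulated counts first.

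The members and lists were chosen with earlier results of these data known. Listed genes and most names come from the study's tables, and their grouping, the LEA group included, was made here. Named are called list members, their other copies, and the 2 largest rises and falls without a name among genes that average 50 counts or more and the same direction in all pairs. Other parts of the study, the study's own fold changes, sequences and coordinates were not used here.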

Additional observations from a re-analysis of the deposited data

How the results depend on the processing

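The number of genes called at 15 min was 898, with 714 higher and 184 lower. It was 228 (209 higher, 19 lower) with all 9 samples in edgeR, 521 (427 and 94) with all 9 samples in DESeq2 and 2098 (1402 and 696) with no filter on low counts. Without the replicate block no gene was called (0 higher, 0 lower, 0 over 1 on the log2 scale), and the phosphatase, receptor, transcription factor and LEA counts were 0 too. Leaving out 1 replicate gave 445 to 1799 genes, 352 to 1135 higher and 93 to 664 lower. Genes called and changed by over 1 numbered 177, and 149 to 308 with 1 replicate left out. Transcription factor rises numbered 11, against 7 in both fits of 9 samples and 7 to 14 with 1 replicate left out. With all 9 samples in edgeR and in DESeq2, LEA rises numbered 3 and 4, against 6, and phosphatase rises 5 and 10, against 13. Receptor falls numbered 10, against 2 in both fits of 9 samples and 5 to 15 with 1 replicate left out. Of the 72 named called genes, 44 lost the call with all 9 samples in edgeR, 28 with all 9 samples in DESeq2, 32 without replicate 1, 13 without replicate 3 and 4 with total count scaling, and none with RLE scaling, with no filter or without replicate 2. Of the 71 tested in each, 15 lost it with DESeq2 on 6 samples and 10 with a minimum mean of 50 counts. The cause of these differences was not tested. With 2 residual degrees of freedom the spread of a gene rests largely on that of other genes. The depth limits calls among genes with few counts.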

Other observations

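Copies on the 2 subgenomes and neighbours on a chromosome can be read from the gene IDs. Among 31678 pairs of tested genes with adjoining ID numbers, both genes were called in 22 pairs, of which 12 rose together, 5 fell together and 5 moved in opposite directions. Of all genes tested 1.73% were called, and the number of such pairs to be expected from that share was not worked out. Whether reads of one gene were counted for its neighbour was not tested. Of the 898 called genes, 358 were called whichever replicate was left out, and 17 lost the call whichever replicate was left out.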
